A study of Homo sapiens with 6 samples.

Results

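The genes described here are 9 lung and foregut lineage genes, chosen by symbol from the 19470 genes of the count table: the transcription factor genes NKX2-1, FOXA1, FOXA2, GATA6 and CEBPA, the surfactant gene SFTPB, and the mucin genes MUC1, MUC5AC and MUC5B. All 9 symbols were found in the table. RNA had been sequenced from A549, an established human lung adenocarcinoma cell line with a wild-type genotype label, in 2 groups of 3 libraries. The activated group had received medium conditioned by osteoclasts, the cells that resorb bone, and the dormant group had been put into an induced dormant state; the sources used here give neither the agent nor the duration. The comparison asked which genes differ as lung adenocarcinoma cells pass from dormancy to activation. Nothing in the labels says that replicate libraries stem from separate cultures, or that both groups were kept in the same base medium. P-values thus reflect the spread among 3 libraries a group, possibly technical spread, and a difference of medium cannot be told apart from a difference of state.

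In the lung, NKX2-1 (thyroid transcription factor 1), FOXA1, FOXA2, GATA6 and CEBPA act together in the foregut-derived epithelium, where they switch on surfactant genes such as SFTPB in alveolar type II cells. FOXA1 and FOXA2 are forkhead factors that open chromatin, GATA6 is a zinc finger factor of endoderm, and C/EBP alpha, the product of CEBPA, couples differentiation to exit from the cell cycle. Mucins are glycoproteins with long, heavily glycosylated repeats: MUC1 is anchored in the membrane, while MUC5AC and MUC5B are the gel-forming mucins of airway mucus. In mice, loss of Foxa2 or Nkx2-1 from lung epithelium is accompanied by mucous cell change.

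The mucin repeats are printed because they define the protein family and because they limit how reads can be placed. In the reference transcript of MUC1, 42.4% of 50-base windows occur more than once within the transcript, against 21.4% for MUC5AC and 29.2% for MUC5B, and 0% for the 6 other genes. The first line is the 60-base unit found most often in the MUC1 transcript (19 exact copies between bases 534 and 2835 of 4170), and the second the 24-base stretch found most often in that of MUC5AC (16 exact copies between bases 7147 and 13618 of 17448), both from GENCODE v29 transcripts of GRCh38, 5′ to 3′.
MUC1 repeat: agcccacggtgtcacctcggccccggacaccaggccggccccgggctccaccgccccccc
MUC5AC repeat: ctcctacaaccagcacaacctctg

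The 250 bases before the RefSeq start (GRCh38.p14) are shown for MUC1 (chr1:155192916-155193165, minus strand) and FOXA1 (chr14:37595250-37595499, minus strand), the genes that rose, and for CEBPA (chr19:33302535-33302784, minus strand), the factor gene that fell most. Each is written 5′ to 3′ on the gene's own strand. Capitals mark matches on either strand to any of 8 motifs, which were TGTTTAC and the variant TGTTTGC for forkhead factors, AGATAA for factors of the GATA6 kind, CAAGTG for NKX2-1, TTGCNNAA for C/EBP factors, GGGCGG for the box bound by SP1, ACGTG for the core of the hypoxia response element and TTCNNNGAA for STAT factors.
MUC1: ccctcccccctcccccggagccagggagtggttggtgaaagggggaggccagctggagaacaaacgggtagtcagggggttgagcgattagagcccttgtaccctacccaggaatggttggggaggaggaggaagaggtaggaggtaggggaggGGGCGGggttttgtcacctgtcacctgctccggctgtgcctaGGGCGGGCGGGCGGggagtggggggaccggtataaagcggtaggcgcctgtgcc
FOXA1: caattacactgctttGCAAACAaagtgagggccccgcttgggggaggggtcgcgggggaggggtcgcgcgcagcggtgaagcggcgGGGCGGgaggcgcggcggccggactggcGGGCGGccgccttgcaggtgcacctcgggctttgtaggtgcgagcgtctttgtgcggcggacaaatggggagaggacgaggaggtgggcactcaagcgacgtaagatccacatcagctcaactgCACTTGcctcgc
CEBPA: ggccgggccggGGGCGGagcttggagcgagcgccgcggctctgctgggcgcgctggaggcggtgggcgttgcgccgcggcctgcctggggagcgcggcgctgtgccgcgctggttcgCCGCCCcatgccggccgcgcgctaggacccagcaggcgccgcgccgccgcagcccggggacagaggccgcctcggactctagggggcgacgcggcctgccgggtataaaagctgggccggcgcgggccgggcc

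Within these windows MUC1 held 4 matches, all to GGGCGG, of which 3 overlap one another. CEBPA held 2, both to GGGCGG. FOXA1 held 2 matches to GGGCGG, 1 to TGTTTGC lying 235 bases before the start, and 1 to CAAGTG lying 12 bases before it. Of 27303 promoter windows of the same length, 42.3% held GGGCGG, 3.19% held TGTTTGC and 9.59% held CAAGTG. The windows were 66.0% GC for MUC1, 67.2% for FOXA1 and 81.2% for CEBPA, against a median of 58.0% over all windows. Windows were found for 6 of the 9 genes. Those of SFTPB and GATA6 held no match to the 8 motifs, and that of NKX2-1 held 1 to TGTTTGC and 3 to GGGCGG. For FOXA1 and NKX2-1, the bases just after the RefSeq start do not occur in the GENCODE transcript used here. Their windows and distances therefore rest on the RefSeq start alone. Matches are letters in a window and say nothing of binding.

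Total counts were 34478795 to 36397989 in activated libraries and 34128471 to 36667725 in dormant libraries. Levels of a gene across libraries are given as CPM, counts scaled to a common library size, with edgeR's TMM factors, and levels of different genes are compared as the authors' FPKM, which divides by gene length and library total. Of 13336 genes with enough counts to be tested, 73.7% passed the threshold (adjusted p of 0.05, quasi-likelihood test of edgeR), 36.5% higher and 37.2% lower in activated cells. Of 10 epithelial markers, 7 were tested, 3 rose and 2 fell, with 0 to 4 falls when 1 library was left out (0 without dormant replicate 1, 4 without activated replicate 1, 1 without activated replicate 2 or 3). The rises were of CDH1, KRT8 and KRT18 (log2 fold change 1.24, 1.05 and 0.93) and the falls of KRT7 (-0.17) and EPCAM (-1.07). The keratins KRT8, KRT18 and KRT7 were abundant in both groups. EPCAM averaged only 0.611 CPM in activated and 1.28 CPM in dormant libraries. CLDN4, which did not pass, averaged 2.92 CPM in activated and 3.66 CPM in dormant libraries. The summed level of the 10 was 7430 to 8370 CPM in activated libraries and 4990 to 5680 CPM in dormant libraries. Markers of osteoclasts and other myeloid cells summed to 44.0 to 48.8 CPM over 22 genes in activated libraries and 29.8 to 35.2 CPM in dormant libraries. Of these, 10 were tested, 6 rose and 2 fell, but MMP9, CSF1R and LAPTM5 had enough counts in activated libraries only, and ACP5 in dormant libraries only, which fixed the direction any call could take. CD14, ITGAM and ITGAX rose with enough counts in both groups (log2 fold change 3.07, 0.79 and 0.49). CTSK, also with enough counts in both groups, fell (-0.4). CD14 averaged 9.25 CPM in activated and 1.1 CPM in dormant libraries. With a minimum mean of 0.5 FPKM, 3 rose. The falls numbered 1 without activated replicate 2 or dormant replicate 2. C1QA, C1QB, C1QC, TYROBP, AIF1, CALCR, OCSTAMP and DCSTAMP had 0 counts in every library. Of 10 stromal markers, 5 were tested, 4 rose and 1 fell; DCN and PDGFRA had enough counts in activated libraries only, and 2 rose with a minimum of 1 CPM in 3 libraries. Their sum was 19.3 to 21.3 CPM in activated and 19.9 to 23.6 CPM in dormant libraries. Their part in the results was not tested. In bulk RNA, fewer cells expressing a gene and less RNA per cell cannot be told apart.

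Activated cells had more MUC1 and FOXA1 transcript and less MUC5AC, CEBPA, MUC5B and FOXA2 transcript than dormant cells, while NKX2-1 and SFTPB were close to undetected in both. MUC1 rose 4.62-fold and MUC5AC fell 4.48-fold, so that the membrane mucin and the gel-forming mucins moved in opposite directions. Among the lineage factors, CEBPA fell 2.83-fold, whereas FOXA1 rose 1.47-fold and FOXA2 fell 1.19-fold. GATA6 did not pass the test. In all, 7 of the 9 genes had enough counts to be tested, in both groups, and 6 of the 7 passed, 2 higher and 4 lower. That share, 85.7%, lies near the 73.7% of all tested genes, so the number of calls is not in itself particular to these genes. Groups did not overlap for those 6 genes, as for 76.5% of all tested genes. A change of at least 2-fold was seen for 4 of the 7, against 22.2% of all tested genes. The 9 genes were chosen with earlier results of these data known, so this contrast cannot show that they changed unusually strongly.

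**Figure D1:**
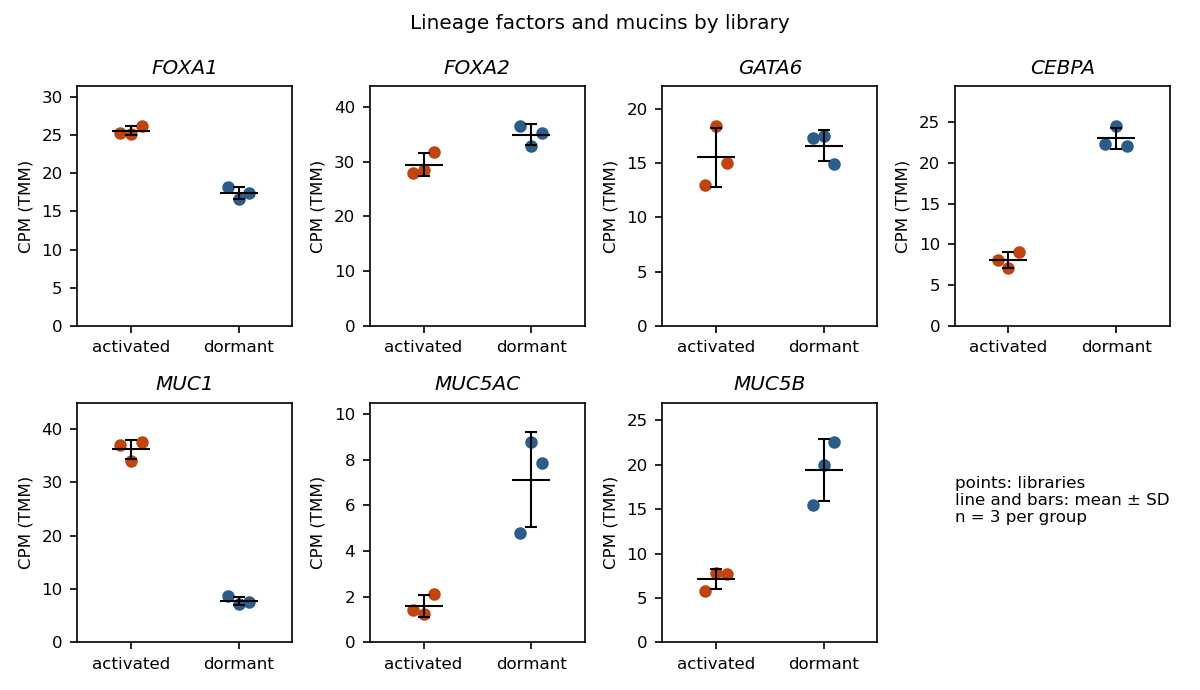
TMM-scaled CPM of the 7 tested genes in each library (points), activated left of dormant, with the mean and SD of 3 libraries; each y axis starts at 0. The groups separate for every gene except GATA6, whose activated libraries span 13.0 to 18.4 CPM and whose dormant libraries span 14.9 to 17.5 CPM.

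NKX2-1, the factor that marks lung and thyroid epithelium (chromosome 14, 36516397 to 36520232, minus strand, GRCh38.p14), had 1, 1 and 0 counts in activated libraries 1, 2 and 3, against 0, 1 and 1 in dormant libraries 1, 2 and 3. Over each group this came to 2 counts and 0.0187 CPM, under the 0.0281 CPM that a count of 0 over a group would still allow (3 counts). The activated to dormant ratio of counts was 1.0, with an exact binomial 95% interval of 0.0725 to 13.8. A difference in NKX2-1 was therefore not detectable at this depth. SFTPB, which encodes surfactant protein B (chromosome 2, 85657307 to 85668741, minus strand), had 4, 0 and 0 counts in activated libraries and 0, 0 and 5 in dormant libraries. Within each group all of its counts came from 1 library. Its ratio was 0.8 with an interval of 0.159 to 3.72. Such intervals cover counting error only.

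Of the other surfactant protein genes, SFTPA1 had 0 counts in every library, SFTPA2 had 0 in activated and 1 in dormant libraries, and SFTPC, the type II cell marker, had 2 in activated and 0 in dormant libraries. SFTPD, which encodes a collectin, had 14, 2 and 13 counts in activated libraries and 12, 15 and 19 in dormant libraries. It passed the low-count filter only through the dormant group and did not pass the test (log2 fold change -0.52 ± 0.61 SE, adjusted p = 0.451 in edgeR). Of the other genes of alveolar type II cells, ABCA3 and LPCAT1 were abundant, whereas SLC34A2 had 0 counts in every library. NAPSA was scarce, at 1.61 CPM in activated and 2.21 CPM in dormant libraries, and did not pass (log2 fold change -0.46 ± 0.3 SE, adjusted p = 0.181 in edgeR). LAMP3, described below, fell (log2 fold change -4.3), with enough counts in dormant libraries only. The genes of this kind thus did not move in 1 direction. ABCA3, the lipid transporter of lamellar bodies, averaged 168 CPM in activated and 130 CPM in dormant libraries (log2 fold change 0.37 ± 0.06 SE, adjusted p = 3.77e-05 in edgeR). LPCAT1, an enzyme of surfactant lipid synthesis that many cells express, averaged 311 CPM in activated and 235 CPM in dormant libraries (log2 fold change 0.40 ± 0.05 SE, adjusted p = 3.40e-06 in edgeR).

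FOXA1 (chromosome 14, 37589552 to 37595249, minus strand) had 25.3, 25.2 and 26.2 CPM in activated libraries, against 18.2, 16.6 and 17.4 CPM in dormant libraries. Every activated library was above every dormant library, and the spread within each group was small, at 2.14% of the mean in activated and 4.52% in dormant libraries. The log2 fold change was 0.56 ± 0.08 SE (edgeR adjusted p = 1.34e-05). Its paralogue FOXA2 (chromosome 20, 22580998 to 22585490, minus strand) had 27.9, 28.5 and 31.8 CPM in activated libraries, against 36.5, 32.8 and 35.2 CPM in dormant libraries. The groups came within about 1 CPM of each other without overlapping. The log2 fold change was -0.24 ± 0.07 SE (edgeR adjusted p = 0.00824), larger in size than that of 26.6% of tested genes. Scaling by total counts lowered the median log2 change of all genes by 0.14 and gave FOXA2 -0.38, so the direction of the fall did not depend on this choice but its size did.

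The balance between the paralogues can be read within each library, free of library scaling. The ratio of FOXA1 to FOXA2 counts was 0.907, 0.883 and 0.824 in activated libraries and 0.498, 0.506 and 0.494 in dormant libraries. FOXA1 thus had close to as many counts as FOXA2 in activated cells, and close to 1 for every 2 in dormant cells. On the log2 scale the ratio was -0.20 ± 0.07 in activated and -1.0 ± 0.02 in dormant libraries (SD, n = 3 each), a difference of 0.80. An exact two-sided permutation test gave p = 0.1, the smallest that 3 libraries against 3 allow. Per length, FOXA1 stood at 0.529 to 0.582 of the FOXA2 level in activated and 0.317 to 0.325 in dormant libraries. No 50-base window of the FOXA1 transcript was found in another gene's transcripts, FOXA2 included. TTC6, on the other strand, shares 16 exonic bases with FOXA1, too few for such a window to show.

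GATA6 (chromosome 18, 22169589 to 22202528, plus strand) had 13.0, 18.4 and 15.0 CPM in activated libraries, against 17.3, 17.5 and 14.9 CPM in dormant libraries. The groups overlapped, and activated replicate 2 was the highest of all 6 libraries. The log2 fold change was -0.10 ± 0.12 SE (edgeR adjusted p = 0.483). Without activated replicate 1 it was 0.02, so no direction can be given for GATA6.

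CEBPA (chromosome 19, 33299934 to 33302534, minus strand) had 8.13, 7.12 and 9.11 CPM in activated libraries, against 22.3, 24.5 and 22.1 CPM in dormant libraries. The groups lay far apart, with 9.11 CPM the highest activated and 22.1 CPM the lowest dormant value. The log2 fold change was -1.50 ± 0.11 SE (edgeR adjusted p = 8.34e-09). In GENCODE v29, 2 antisense genes overlap 25.0% and 18.3% of the exonic bases of CEBPA, and as the counting is not stated to use strand, reads of either cannot be told apart from those of CEBPA. The same limit holds for NKX2-1 (12.7% overlapped), GATA6 (6.08% and 8.14%) and MUC5B (2.33%).

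The other C/EBP genes did not all follow CEBPA. CEBPB, a stress and acute phase factor, fell 2.16-fold to 265 ± 2.70 CPM in activated libraries, against 574 ± 28.4 CPM in dormant libraries. CEBPG, a partner of ATF4, fell 3.16-fold to 72.4 ± 0.517 CPM in activated libraries, against 229 ± 2.98 CPM in dormant libraries. DDIT3, the stress-induced member also called CHOP, fell 29.6-fold to 4.16 ± 0.659 CPM, against 123 ± 7.30 CPM in dormant libraries. CEBPD and CEBPZ, the last a C/EBP gene by name that encodes a larger CCAAT-binding protein, rose 1.23-fold each (adjusted p = 0.00124 and 0.000131 in edgeR). CEBPD no longer passed when limma was run on log2 FPKM in 3 settings (log2 fold change 0.16, adjusted p of 0.0719 to 0.115). All 5 tested genes of this list of 6 passed, against 73.7% of all tested genes, 2 higher and 3 lower, with a median log2 fold change of -1.11 against -0.02 over all tested genes; CEBPE had 0 counts throughout.

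**Figure D2:**
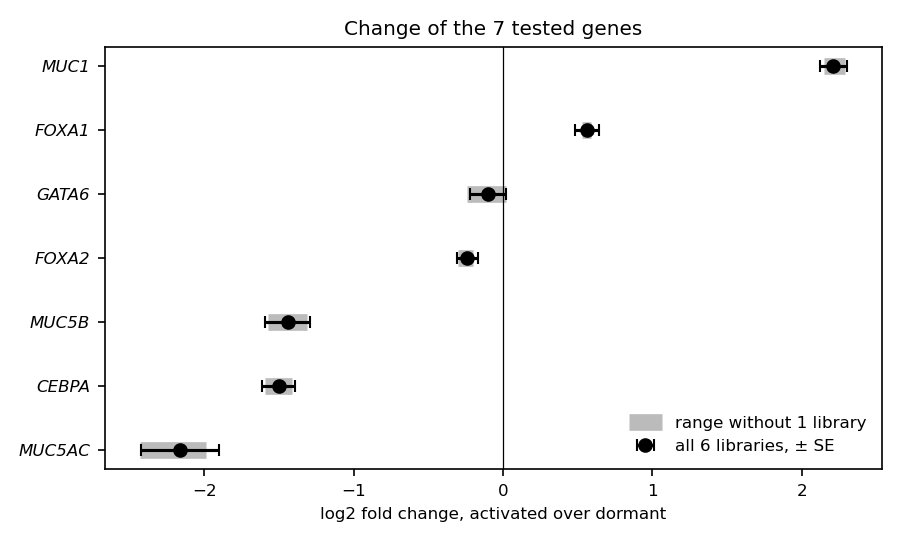
Log2 fold change of the 7 tested genes, activated over dormant, from edgeR with all 6 libraries (points, bars ± SE), and the range when 1 library is left out (grey). MUC1 and FOXA1 lie to the right of 0, FOXA2, MUC5B, CEBPA and MUC5AC to the left, and the grey range crosses 0 for GATA6, from -0.24 to 0.02.

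MUC1 (chromosome 1, 155185824 to 155192915, minus strand) had 36.9, 34.0 and 37.4 CPM in activated libraries, against 8.60, 7.18 and 7.63 CPM in dormant libraries. The groups were far apart, and their means stood at 36.1 ± 1.83 CPM in activated and 7.80 ± 0.727 CPM in dormant libraries (SD, n = 3 each). The log2 fold change was 2.21 ± 0.09 SE (edgeR adjusted p = 1.84e-11), larger in size than that of 94.4% of tested genes. No 50-base window of its transcript was found in transcripts of other genes. The gene AL713999.1 shares 48 exonic bases with MUC1 on the same strand, too few for such a window to show.

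MUC5AC (chromosome 11, 1157953 to 1201138, plus strand) had 1.40, 1.24 and 2.13 CPM in activated libraries, against 4.78, 8.75 and 7.86 CPM in dormant libraries. These levels rested on 48, 43 and 70 counts in activated and 179, 340 and 281 counts in dormant libraries. Dormant replicate 1 was well below the other dormant libraries, yet more than 2-fold above every activated one. The log2 fold change was -2.16 ± 0.26 SE (edgeR adjusted p = 2.87e-06), and it lay between -2.43 and -1.99 when 1 library was left out. MUC5B, which begins 21927 bases beyond the end of MUC5AC on the same strand (chromosome 11, 1223066 to 1262172), had 5.79, 7.81 and 7.74 CPM in activated libraries, against 15.5, 20.0 and 22.5 CPM in dormant libraries. Both neighbours were thus lower in every activated library than in any dormant library. For MUC5B the log2 fold change was -1.44 ± 0.15 SE (edgeR adjusted p = 4.97e-07).

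MUC5AC counts were 0.242, 0.159 and 0.276 of MUC5B counts in activated libraries, against 0.308, 0.437 and 0.349 in dormant libraries. The groups did not overlap, but the gap between them was narrow. On the log2 scale the ratio was -2.19 ± 0.42 in activated and -1.47 ± 0.26 in dormant libraries (SD, n = 3 each), a difference of -0.72 (exact two-sided permutation p = 0.1, the smallest possible). The difference was -0.48 without activated replicate 2, -0.58 without dormant replicate 2 and -0.88 without activated replicate 3, so its size depends on libraries of both groups. The other mucin genes of the same cluster were scarce: MUC6 had 1 activated and 2 dormant counts, and MUC2, the intestinal gel-forming mucin, had 0, 3 and 2 counts in activated and 6, 9 and 10 in dormant libraries. Neither had enough counts to be tested, and the ratio of MUC2 counts was 0.2 with a 95% counting interval of 0.0598 to 0.532.

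Of the 18 other mucin genes listed, 5 were tested, 2 rose and 1 fell (3 of 5 called, against 73.7% of all tested genes), with a median log2 fold change of -0.15. The fall was that of OVGP1, which passed the low-count filter through dormant libraries only, a limit that favours falls. There were 0 falls with a minimum of 1 CPM in 3 libraries and 2 without dormant replicate 1. MUC3A, a membrane mucin of gut epithelium, rose 7.96-fold, at 24.1, 20.0 and 19.6 CPM in activated libraries, against 2.32, 3.16 and 2.49 CPM in dormant libraries. MUC12 rose 2.61-fold. MUC3A and MUC12 belong to a cluster of repeat-rich genes, and their separate values are uncertain. The membrane mucin MUC13 did not pass (log2 fold change -0.15 ± 0.14 SE, adjusted p = 0.330 in edgeR).

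Together these changes altered the make-up of mucin transcripts. Summed over MUC1, MUC5AC, MUC5B and the 18 other genes, mucin transcripts came to 15.6, 14.2 and 15.4 FPKM in activated libraries, against 8.22, 11.0 and 9.58 FPKM in dormant libraries. MUC1 made up 56.0% ± 0.751 of this sum in activated and 21.4% ± 4.91 in dormant libraries (SD, n = 3 each). MUC5B made up 2.52% ± 0.492 and MUC5AC 0.574% ± 0.157 in activated libraries, and 11.8% ± 1.62 and 4.41% ± 0.813 in dormant libraries. By counts, which weight long transcripts more, MUC1 made up 44.4% ± 0.907, MUC5B 8.76% ± 1.64 and MUC5AC 1.95% ± 0.556 in activated libraries, and 15.0% ± 3.65, 36.1% ± 3.35 and 13.2% ± 2.27 in dormant libraries. Dormant cells held more MUC13 than MUC1 per length, and activated cells the reverse. Levels of different mucin genes carry the limit on placing reads in repeats given above, so the shares within a group are uncertain. Exact two-sided permutation tests gave p = 0.1 for each of these shares and for the sum, the smallest possible with 3 libraries a group, unadjusted over the family of 12 such quantities.

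**Figure D3:**
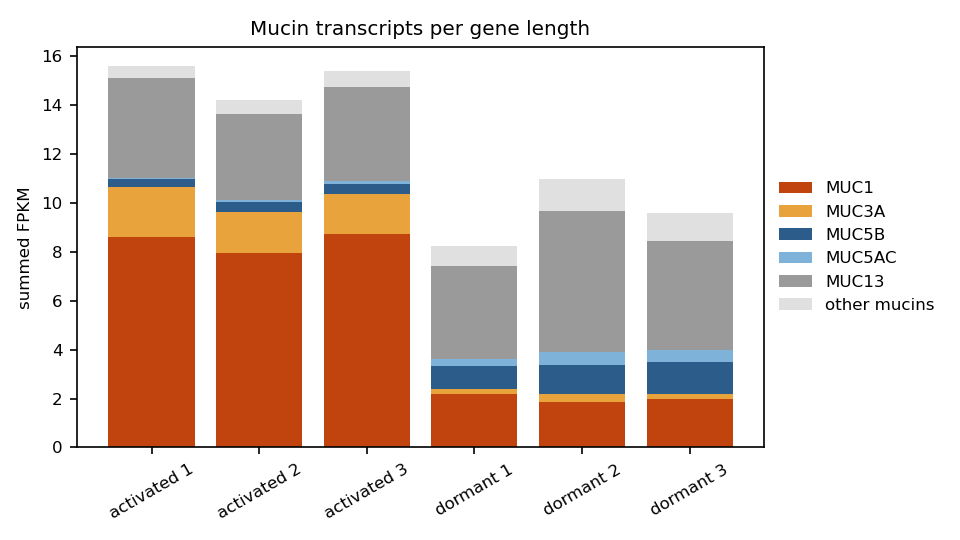
Summed FPKM of mucin genes in each library, activated left of dormant, split by gene (colours). MUC1 fills 55.2% to 56.7% of the bar in activated libraries and 17.0% to 26.7% in dormant libraries, while the 2 blue segments of MUC5B and MUC5AC are thinner in activated libraries.

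Ranked by FPKM, FOXA2 was highest of the 9 genes in both groups, at 10.2 ± 0.716 in activated and 13.3 ± 0.594 in dormant libraries. In MUC1, 42.4% of 50-base windows recur within the transcript, against 0% in FOXA2. How reads in such repeats were counted is not stated, so the order of FOXA2 and MUC1 in activated cells is uncertain. MUC1 was next in activated cells, at 8.45 ± 0.422 FPKM, followed by FOXA1, GATA6, CEBPA, MUC5B and MUC5AC. CEBPA stood at 2.97 ± 0.363 FPKM in activated and 9.27 ± 0.610 FPKM in dormant cells, where it came next after FOXA2, followed by GATA6, FOXA1, MUC1, MUC5B and MUC5AC. SFTPB and NKX2-1 came last in both groups. The ranges of neighbours in this order did not overlap, except for GATA6 and FOXA1 in dormant libraries and for SFTPB and NKX2-1 in both groups. MUC5AC and MUC5B were the weakest of the tested genes per kilobase, at 0.0869 ± 0.0259 and 0.378 ± 0.0611 FPKM in activated libraries and 0.429 ± 0.129 and 1.13 ± 0.211 FPKM in dormant libraries.

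**Figure D4:**
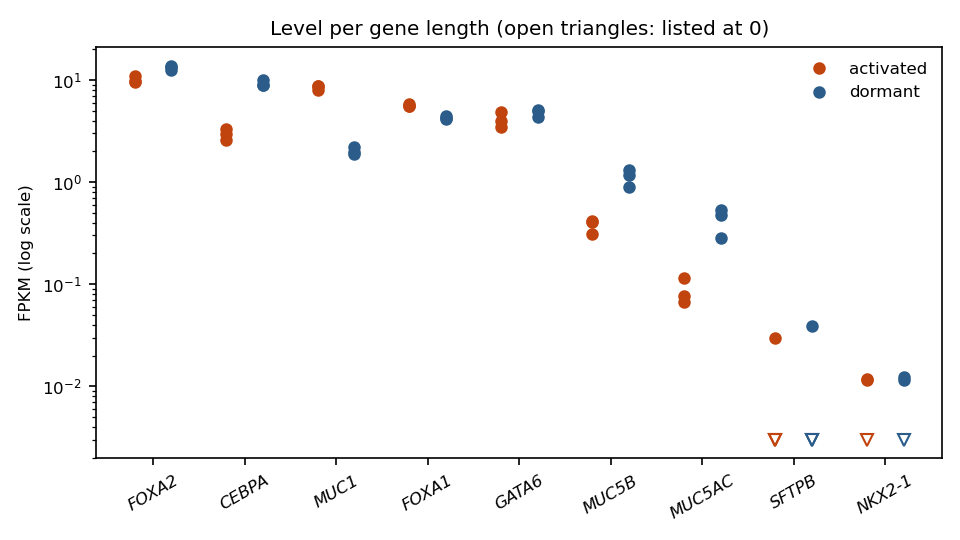
FPKM of the 9 genes in each library on a log axis, activated left of dormant for each gene; open triangles are libraries listed at 0. CEBPA and MUC1 exchange places between the groups, and SFTPB and NKX2-1 stay below 0.04 FPKM.

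Other transcription factors of the lung and foregut were measured beside these genes. Of 40 listed, 30 were tested, 6 rose and 12 fell (18 of 30 called, against 73.7% of all tested genes), with a median log2 fold change of -0.15. FOXA3, the remaining FOXA paralogue, had 1.08, 1.30 and 1.19 CPM in activated libraries, against 3.93, 2.55 and 3.27 CPM in dormant libraries, a 2.73-fold fall (adjusted p = 0.000176 in edgeR). HNF4A, a nuclear receptor of liver and gut, had 13.2 ± 0.955 CPM in activated and 13.5 ± 1.15 CPM in dormant libraries and did not pass (adjusted p = 0.782 in edgeR). Its relative HNF4G fell 3.23-fold. KLF4, a factor linked to epithelial differentiation and growth arrest, fell 5.41-fold, and TP63, a factor of basal and squamous cells, rose 11.1-fold to 16.5 ± 3.27 CPM in activated libraries, against 1.48 ± 0.154 CPM in dormant libraries. SOX2 rose 1.60-fold (adjusted p = 0.0184 in edgeR), a call that ended with total-count scaling (0.0541) and without activated replicate 1 (0.122) or dormant replicate 3 (0.0587).

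Among 26 alveolar and airway differentiation genes, 25 were in the table, 10 were tested, 5 rose and 1 fell (6 of 10 called, against 73.7% of all tested genes), with a median log2 fold change of 0.39. In all, 10 had 0 counts in every library, among them the club cell secretoglobin SCGB1A1 and the type I cell water channel AQP5. LAMP3, a membrane protein of lamellar bodies and of mature dendritic cells, fell 19.7-fold, at 0.526, 0.0864 and 0.640 CPM in activated libraries, against 8.12, 9.41 and 7.07 CPM in dormant libraries. It passed the low-count filter through the dormant libraries only, which favours a fall. Activated replicate 2, with 3 counts, was below the filter's minimum. PDPN and CAV1, which mark alveolar type I cells but are also expressed in many other cells, rose 9.69-fold and 2.44-fold.

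Genes that act in goblet cells or build mucin sugars included 9 that rose and 5 that fell among 21 tested of 37 (66.7% called, against 73.7% of all tested genes), with a median log2 fold change of 0.07. SPDEF, the factor that drives goblet cell differentiation, had 0.994, 0.576 and 0.914 CPM in activated libraries, against 0.134, 0.129 and 0.140 CPM in dormant libraries. Its dormant counts were below the filter's minimum, so a rise was the only change that could have been called. GALNT2, which starts O-glycosylation, rose 4.40-fold, and the factor gene CREB3L1 rose 2.58-fold. GCNT4, which branches O-glycans, fell 7.25-fold, and GALNT6 fell 1.79-fold.

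In a list of 21 gastric, gut and liver genes, 13 were tested, 7 rose and 3 fell (76.9% called, against 73.7% of all tested genes), with a median log2 fold change of 1.82. FGB and FGG, which encode fibrinogen chains made in liver and in the acute phase response, rose 30.6-fold and 17.8-fold. CDH17, an intestinal cadherin, fell 6.18-fold and CPS1, a urea cycle enzyme, 1.61-fold. The other fall was of LGALS4, which passed the low-count filter through dormant libraries only, a limit that favours falls. The remaining rises were of FGA, SERPINA1, ANXA10, CLDN2 and TM4SF4 (log2 fold change 3.51, 1.82, 2.79, 2.86 and 2.82). The fibrinogen genes among the rises are known from liver and from the acute phase, and not from gastric or gut identity. What lies behind their rises was not tested.

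**Figure D5:**
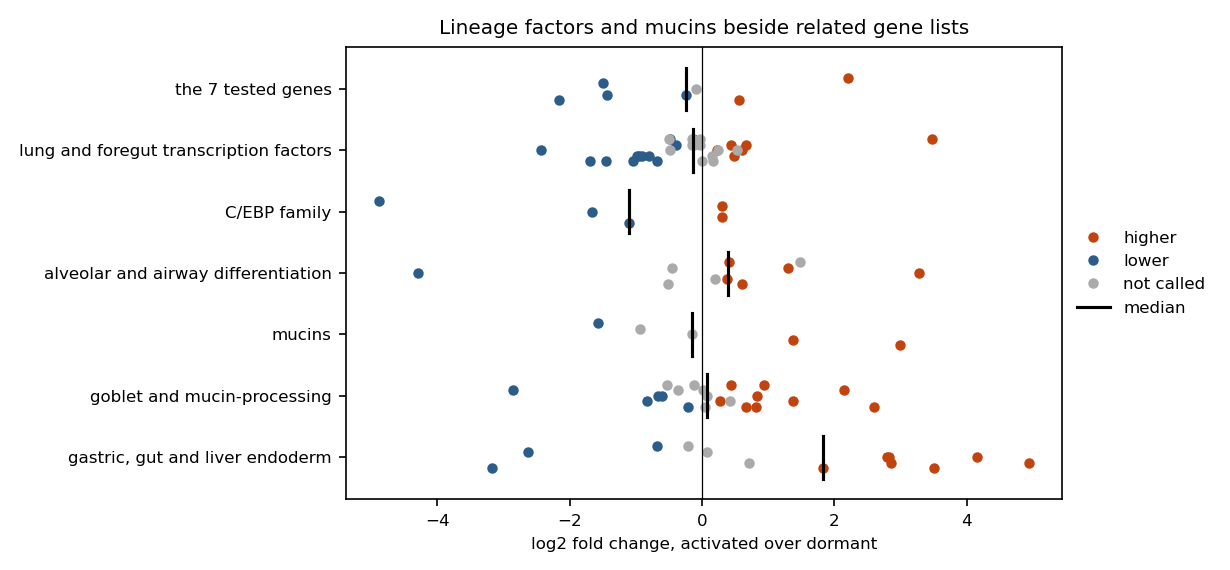
Log2 fold change, activated over dormant, of each tested gene in the 7 tested lineage and mucin genes (top row) and in 6 related lists; colours give the call at an adjusted p of 0.05 and black lines the list medians. The medians run from -1.11 for the C/EBP family to 1.82 for gastric, gut and liver genes, against -0.02 for all tested genes.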

How the data were processed

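The 9 genes and the lists beside them were chosen with earlier results of these data known. Per the labels' protocols, TRIzol was used to extract total RNA and a VAHTS Universal V6 kit to build the libraries. The count table deposited by the authors holds whole-number counts per gene symbol, and the FPKM table deposited by the authors holds those counts per kilobase and scaled to the library total. For 10754 genes with at least 100 counts in every library, the gene length implied by count and FPKM was the same in all libraries (largest relative spread 1.35e-09). The tools were HISAT2, HTSeq and fastp and the build GRCh38, per the submitters' processing notes; versions, annotation and strand setting were not given in the sources used here.

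Counts were tested with edgeR 4.0.16 (R 4.3.3): TMM factors, the default filter on low counts by group, the quasi-likelihood test of activated against dormant, and Benjamini-Hochberg adjustment over all 13336 tested genes, with a threshold of 0.05. The procedure was tested on simulated counts in which few genes changed. That test says nothing of scaling or error rates where most genes are called, as here. Standard errors are the log2 fold change over the square root of F. Replicates differed by more than sampling noise (chi-square per degree of freedom 4.90 to 22.9 over genes with at least 30 counts in a pair of libraries), so each library counted once. Alternatives were other scalings, DESeq2 1.42.0, limma 3.58.1 (voom, or log2(FPKM + 1) and log2(FPKM + 0.1)), other filters, the replicate number as a block, and leaving out each library. Besides the 9 genes, the text names the 2 largest rises and falls past the threshold with a mean of at least 1 CPM in each related list, and 10 genes set whatever their values. Marker genes, MUC13, ABCA3, LPCAT1, NAPSA, SLC34A2, OVGP1, LGALS4, FGA, SERPINA1, ANXA10, CLDN2, TM4SF4, CEBPE, SCGB1A1 and AQP5 were named after their values were seen. Coordinates are 1-based, from RefSeq on GRCh38.p14; overlaps and transcripts are from GENCODE v29 on GRCh38.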

Additional observations from a re-analysis of the deposited data

How the results depend on the processing

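The number of genes past the threshold, 9830, was between 8959 and 10009 under the other scalings, tools, filters and units, and between 9298 and 9756 with 1 library left out. Under total-count scaling, 39.7% of the calls were higher in activated cells, against 49.5%. Of 117 values of the 7 tested genes under the alternatives, 116 had the same direction and the same call. The exception was GATA6, whose log2 fold change lay between -0.24 and 0.02 with 1 library left out and turned direction without activated replicate 1. MUC5AC had no value in the settings with a minimum mean of 0.5 FPKM, which left 3 of the genes lower instead of 4. The adjusted p of FOXA2 was at most 0.0449, without dormant replicate 1. On log2(FPKM + 1) the change of MUC5AC was -0.39 and that of MUC5B -0.63. The pseudocount exceeds the level of MUC5AC in every library, and that of MUC5B in activated libraries and in dormant replicate 1. Of 306 counts of calls in the related lists under the alternatives, 278 were within 1.5 times the reported count and 28 were not. NKX2-1 and SFTPB, fitted with no filter, had adjusted p of 0.961 and 0.929. When replicate number was added to the fit (replicate block), the log2 fold change of GATA6 was -0.10, that of MUC5AC -2.15 and that of FOXA2 -0.25, and no call on the 7 genes changed. Deviations of libraries sharing a number correlated at -0.0152, 0.019 and -0.00572, and the numbers were not treated as pairing the libraries. Depth limited NKX2-1, SFTPB, MUC2 and MUC6.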
